A study of Mus musculus with 43 samples.

Results

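The response described here is that of irradiated mouse intestinal organoids to TGFB1 at the end of a 24 h treatment, read as messenger RNA. It rests on 6 of the 18 bulk RNA-seq libraries of the series, 3 treated with vehicle and 3 with TGFB1. All came from primary intestinal organoids of wild-type (WT) C57BL/6 mice that received 4 Gy on day 4. On day 6 they received vehicle or TGFB1 at 2 ng/mL for 24 h, and collection was on day 7 (D7). Of the 23951 genes in the expression table, 11258 had a mean of at least 1 FPKM over these 6 libraries, and these are the genes described. FPKM are fragments scaled for transcript length and for the number of fragments mapped, a level that takes account of gene length.

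A further pair of sets served only to test differences in the TGFB1 effect. D7 organoids without irradiation had the same treatments and 3 libraries a group. Organoids with the same 4 Gy and the same treatments, but collected on day 11 (D11), also had 3 libraries a group. The labels do not say whether the 3 libraries of a group came from separate cultures or mice, so p-values measure only the spread between these samples, which may be technical.

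An intestinal organoid is a cultured epithelium that grows from crypt cells and holds stem cells, Paneth, goblet, enteroendocrine and tuft cells and absorptive enterocytes, with no stroma, vessels or immune cells of its own. TGFB1 is a secreted cytokine that binds a complex of type I and type II receptor kinases. The receptors phosphorylate SMAD2 and SMAD3, which enter the nucleus with SMAD4 and switch genes on or off, among them genes that dampen the pathway again. In epithelia the cytokine is known for arresting cell division, for building matrix and adhesion structures and, in damaged intestine, for a return of crypt cells to a state with fetal and wound-associated genes.

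Summed over genes, the 6 libraries held 551792 to 621996 FPKM, and 11040.0 to 11250.0 genes passed 1 FPKM in a library. Their read depth is unknown, because the table holds no counts. Epithelial genes stood high in all 6, Cdh1 for instance at 299.8, 290.5 and 294 FPKM with vehicle and 580.1, 576 and 599.5 FPKM with TGFB1. Of 18 immune markers, 13 stayed under 1 FPKM in every library, Ptprc among them and Cd3e and Cd8b1 listed at 0. A listed 0 can be a failed estimate and does not show absence, since 2 cytosolic ribosomal protein genes are also listed at 0 in all 6 libraries. The summed level of the 18 markers was 16.0 to 18.3 FPKM with vehicle and 24.3 to 26.3 FPKM with TGFB1. Its rise was no larger than that of Cd14, at 8.44, 7.45 and 8.24 FPKM with vehicle and 17.0, 17.5 and 16.4 FPKM with TGFB1. Cd68 was also higher, at 2.43, 1.90 and 2.79 FPKM with vehicle and 3.52, 3.46 and 3.32 FPKM with TGFB1. So was Csf1r, at 0.422, 0.320 and 0.293 FPKM with vehicle and 1.20, 1.33 and 1.50 FPKM with TGFB1. Lyve1 went the other way, at 4.69, 3.89 and 4.29 FPKM with vehicle and 1.42, 1.52 and 1.21 FPKM with TGFB1, as did Itgam. Of 14 mesenchymal markers, 13 stayed under 1 FPKM, with Col3a1 and Lum listed at 0. The exception was Acta2, the smooth muscle actin gene, at 0.332, 0.558 and 0.366 FPKM with vehicle and 2.56, 2.95 and 4.14 FPKM with TGFB1. The mesenchymal sum was 0.694 to 1.05 FPKM with vehicle and 3.34 to 5.05 FPKM with TGFB1. In bulk libraries, fewer cells of a type and less RNA per cell cannot be told apart.

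TGFB1 changed most of the genes measured. With limma (adjusted p under 0.05 after Benjamini-Hochberg adjustment, two-sided, called here), 8495 of 11258 genes were called, or 75.5%. Of all genes, 35.8% were called higher with TGFB1 and 39.7% lower, and the median log2 change over all genes was -0.03. Changes of at least 2-fold were called upward in 877 genes (7.79%) and downward in 607 (5.39%). At 4-fold or more the counts were 204 upward and 33 downward. The 3 libraries of one group lay entirely above those of the other in 78.2% of genes. Most genes named below were picked for the size of their change in these libraries, so separate groups add no support for them. Among genes with a group mean of at least 10 FPKM, replicates lay close together. The median coefficient of variation was 3.22% among vehicle libraries (6793 genes) and 4.12% among TGFB1 libraries (6703 genes). Log2 changes are differences of log2(FPKM + 1) with their SE, which understates the change of genes near 1 FPKM. FPKM are given per library or as mean ± SD of 3 libraries.

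**Figure D1:**
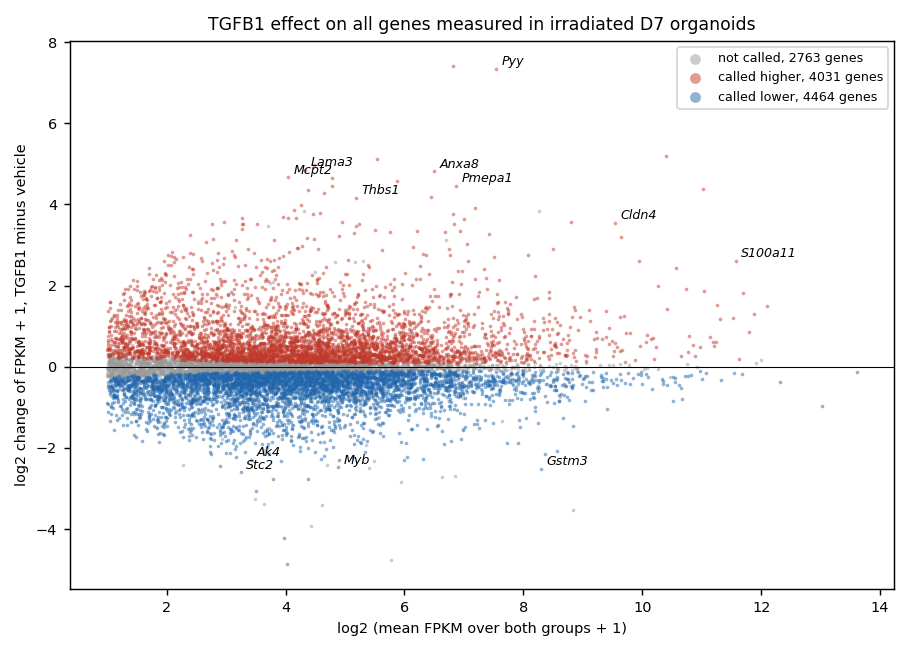
Change with TGFB1 (y axis, log2 of FPKM + 1, TGFB1 minus vehicle) against mean level (x axis, log2 of mean FPKM + 1) for the 11258 genes measured in irradiated D7 organoids, n = 3 libraries a group. Red points are genes called higher, blue points genes called lower and grey points genes not called; rises reach further than falls among genes of middle level.

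Among the largest rises were a laminin chain, an annexin and a feedback inhibitor of the pathway itself. Lama3, the alpha chain of an epithelial laminin, stood at 0.306, 0.274 and 0.414 FPKM with vehicle and 35.6, 35.5 and 41.9 FPKM with TGFB1 (log2 change 4.86 ± 0.08, adjusted p = 1.7e-11). Anxa8, a calcium-dependent membrane-binding protein, stood at 4.66, 4.87 and 6.04 FPKM with vehicle and 166, 161 and 192 FPKM with TGFB1 (log2 change 4.82 ± 0.09, adjusted p = 4.3e-10). Each TGFB1 library lay far above each vehicle library for both genes. Ctse, the aspartic protease cathepsin E, rose from 3.75 ± 0.785 to 111 ± 7.00 FPKM (log2 change 4.57 ± 0.11, adjusted p = 1.9e-09). Prkcdbp, a caveolae protein also known as cavin-3, rose from 1.13 ± 0.268 to 52.0 ± 5.14 FPKM (log2 change 4.64 ± 0.10, adjusted p = 3.0e-10). Cwh43, a gene of lipid remodelling of membrane anchors, rose from 1.38 ± 0.269 to 51.3 ± 4.67 FPKM (log2 change 4.46 ± 0.09, adjusted p = 1.4e-10). Mcpt2, a protease best known from mucosal mast cells, stood at 0.217, 0.300 and 0.220 FPKM with vehicle and 29.4, 29.4 and 33.1 FPKM with TGFB1 (log2 change 4.67 ± 0.07, adjusted p = 1.3e-11). Of the other 7 mast cell genes looked at, Cpa3, Ms4a2 and Fcer1a were listed at 0 in all 6 libraries, and Tpsb2 and Tpsab1 reached at most 0.252 and 0.0745 FPKM. Mcpt1, a close relative of Mcpt2 that may share its reads, stood at 0, 0.0802 and 0.0817 FPKM with vehicle and 1.45, 1.32 and 1.39 FPKM with TGFB1, and Kit at 5.13, 3.76 and 4.13 FPKM with vehicle and 3.61, 3.75 and 3.18 FPKM with TGFB1.

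Short RNAs aside, the falls were largest in Rbp7 (-4.21 ± 0.10), Aqp4 (-3.06 ± 0.09), Rgcc (-2.77 ± 0.05) and Lipg (-2.75 ± 0.06), given as log2 changes among called genes of at least 10 FPKM in a group. Next came a secreted hormone, a glutathione transferase and a regulator of crypt cells. Stc2, the secreted glycoprotein stanniocalcin, stood at 16.2, 15.3 and 14.4 FPKM with vehicle and 1.54, 1.77 and 1.74 FPKM with TGFB1 (log2 change -2.60 ± 0.07, adjusted p = 3.5e-10). Gstm3, which conjugates glutathione to reactive compounds, stood at 527, 537 and 547 FPKM with vehicle and 97.4, 92.4 and 90.1 FPKM with TGFB1 (log2 change -2.51 ± 0.04, adjusted p = 1.6e-11), and reads of its close relatives in the Gstm family may be shared with it. Myb, a transcription factor of proliferating crypt cells, stood at 48.6, 47.8 and 50.1 FPKM with vehicle and 9.34, 8.48 and 6.30 FPKM with TGFB1 (log2 change -2.48 ± 0.11, adjusted p = 1.9e-07). No library of one group reached into the range of the other for these genes. Ak4, a mitochondrial nucleotide kinase, fell from 16.7 ± 0.403 to 2.64 ± 0.612 FPKM (log2 change -2.30 ± 0.11, adjusted p = 3.8e-08).

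Within the pathway, the RNA of the ligand itself rose, with smaller changes among receptors and SMADs. Tgfb1 itself stood at 3.58, 2.90 and 3.81 FPKM with vehicle and 33.4, 33.0 and 34.2 FPKM with TGFB1 (log2 change 2.97 ± 0.07, adjusted p = 2.8e-10), so that its RNA rose 9.78-fold. Of the ligands, receptors and SMADs, 4 of 11 measured members were called higher and 1 lower, with a median log2 change of 0.13. Over all genes, 35.8% were called higher and 39.7% lower. Acvr1, a type I receptor shared by activins and BMPs, rose from 8.13 ± 0.182 to 24.5 ± 1.02 FPKM (log2 change 1.48 ± 0.05, adjusted p = 1.6e-09). Smad3, a carrier of the signal, rose from 15.7 ± 0.0899 to 25.0 ± 1.09 FPKM (log2 change 0.64 ± 0.05, adjusted p = 4.0e-07), and Tgfbr2, the type II receptor that binds the ligand, from 38.3 ± 0.586 to 58.2 ± 3.30 FPKM (log2 change 0.59 ± 0.05, adjusted p = 7.0e-07). Gdf15, a stress-induced distant member of the ligand family, was the one member called lower, from 10.3 ± 1.21 to 6.32 ± 0.725 FPKM (log2 change -0.62 ± 0.09, adjusted p = 1.5e-04).

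Genes that SMADs switch on to restrain the pathway mostly rose. Of the feedback and immediate target genes, 14 of 16 measured members were called higher and 2 lower, with a median log2 change of 1.18. Pmepa1, a membrane protein that sequesters SMADs, stood at 8.78, 9.05 and 9.58 FPKM with vehicle and 215, 223 and 229 FPKM with TGFB1 (log2 change 4.46 ± 0.04, adjusted p = 1.8e-12). Skil, a SMAD corepressor, stood at 3.45, 3.37 and 3.68 FPKM with vehicle and 24.2, 22.3 and 24.6 FPKM with TGFB1 (log2 change 2.46 ± 0.06, adjusted p = 1.9e-10). Tgif1, another corepressor, rose from 49.1 ± 1.07 to 166 ± 13.6 FPKM (log2 change 1.74 ± 0.05, adjusted p = 1.1e-09), and Tsc22d1, a leucine zipper gene first known as TGFB-stimulated, from 78.6 ± 2.62 to 174 ± 5.83 FPKM (log2 change 1.14 ± 0.04, adjusted p = 2.1e-09). The groups did not overlap for any of these 4 genes. The related corepressor Tgif2 went the other way, from 11.2 ± 0.481 to 4.12 ± 0.148 FPKM (log2 change -1.26 ± 0.06, adjusted p = 1.4e-08). Tgfbi, a secreted matrix protein named for its induction by TGFB, was also called lower, from 2.77 ± 0.248 to 1.95 ± 0.217 FPKM (log2 change -0.36 ± 0.09, adjusted p = 0.00379).

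The BMP pathway, the sister branch that patterns the crypt and villus, was divided. Here 7 of 14 measured members were called higher and 4 lower. Bmp1, a protease that trims procollagens rather than a signalling ligand, rose from 2.66 ± 0.192 to 12.8 ± 0.901 FPKM (log2 change 1.92 ± 0.07, adjusted p = 2.7e-09), and the ligand gene Bmp8b rose from 4.83 ± 0.150 to 14.0 ± 0.770 FPKM (log2 change 1.36 ± 0.06, adjusted p = 7.8e-09). Bmp7 fell from 11.0 ± 0.188 to 3.34 ± 0.334 FPKM (log2 change -1.47 ± 0.07, adjusted p = 1.4e-08) and Bmp3, an inhibitory member, from 19.2 ± 1.05 to 8.15 ± 0.342 FPKM (log2 change -1.14 ± 0.06, adjusted p = 2.2e-08). Of the Id genes, which BMP signals induce and which block differentiation factors, Id1 rose from 40.7 ± 0.328 to 72.3 ± 1.79 FPKM (log2 change 0.81 ± 0.04, adjusted p = 1.1e-08) and Id2 fell from 20.7 ± 0.653 to 13.3 ± 1.51 FPKM (log2 change -0.61 ± 0.07, adjusted p = 2.3e-05).

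**Figure D2:**
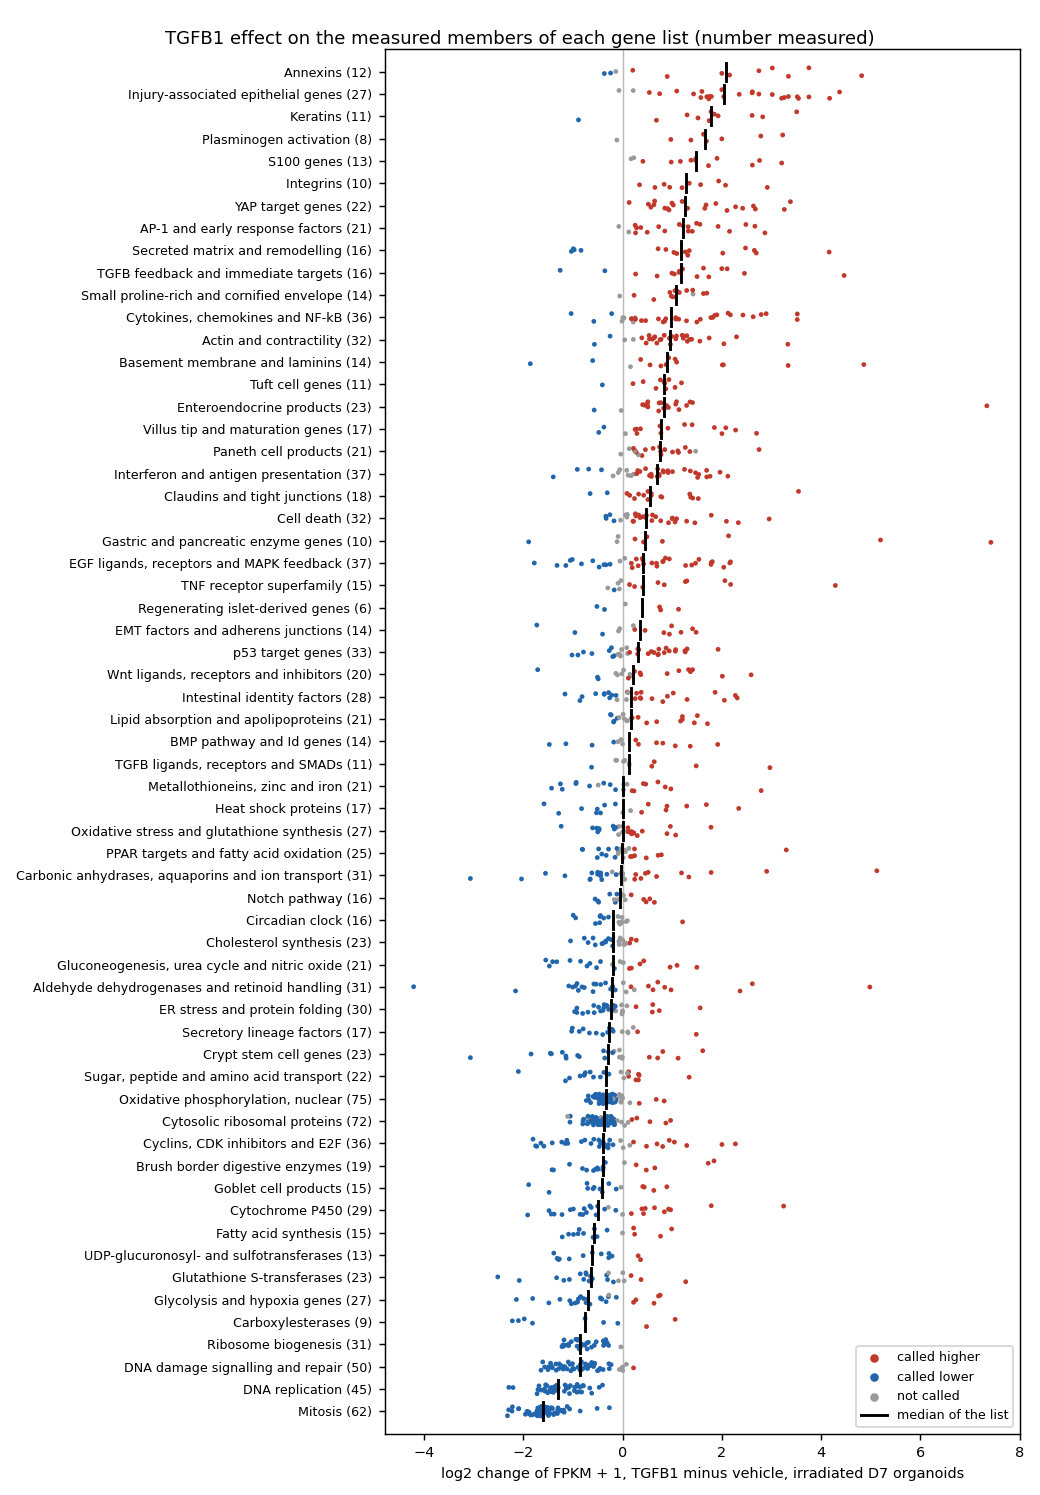
Log2 change of FPKM + 1 (x axis, TGFB1 minus vehicle) of every measured member of 61 gene lists (rows, number measured in brackets), one point per gene from 3 against 3 libraries. Red is called higher, blue called lower, grey not called, and the black bar is the list's median; annexins, injury genes and keratins lie at the top, mitosis and DNA replication at the bottom.

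Genes of the injured and regenerating epithelium rose almost as a block. Of the injury-associated genes, 25 of 27 measured members were called higher and 0 lower, with a median log2 change of 2.04. Ly6d, a membrane-anchored surface protein, stood at 8.50, 7.76 and 8.23 FPKM with vehicle and 159, 160.4 and 173 FPKM with TGFB1 (log2 change 4.17 ± 0.05, adjusted p = 5.2e-12). Cldn4, a claudin of tight junctions, stood at 112, 117 and 119.6 FPKM with vehicle and 1300.3, 1304 and 1498 FPKM with TGFB1 (log2 change 3.54 ± 0.06, adjusted p = 2.4e-11). S100a11, a calcium-binding protein, stood at 806, 873 and 875 FPKM with vehicle and 5749.5, 4744 and 5204 FPKM with TGFB1 (log2 change 2.62 ± 0.07, adjusted p = 7.0e-10). Every TGFB1 library exceeded every vehicle library for these 3 genes. Il33, an alarm cytokine of damaged epithelium, was not called, at 0.562, 1.06 and 1.49 FPKM with vehicle and 1.29, 1.46 and 1.23 FPKM with TGFB1, but was called without vehicle library 3 (adjusted p = 0.0306). The list was drawn up with earlier results of these data known, so its count is a description and no independent evidence.

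Calcium-responsive families rose as well. They share members with the injury list, Anxa10, Anxa5, S100a6 and S100a11 among them, so their counts are no separate evidence. Of the annexins, which bind membranes in the presence of calcium, 9 of 12 measured members were called higher and 2 lower, with a median log2 change of 2.08. Anxa10 rose from 20.9 ± 1.42 to 221 ± 21.1 FPKM (log2 change 3.34 ± 0.07, adjusted p = 3.2e-10) and Anxa5, which binds exposed phosphatidylserine, from 28.3 ± 2.32 to 236 ± 17.0 FPKM (log2 change 3.02 ± 0.07, adjusted p = 3.1e-10). Anxa11 fell from 71.5 ± 0.819 to 55.3 ± 4.13 FPKM (log2 change -0.37 ± 0.05, adjusted p = 7.7e-05) and the abundant Anxa4 from 686 ± 6.19 to 581 ± 4.73 FPKM (log2 change -0.24 ± 0.03, adjusted p = 5.0e-05). Of the S100 genes, small calcium-binding proteins, 11 of 13 measured members were called higher and 0 lower, with a median log2 change of 1.47. S100a6 stood at 143, 149.7 and 171 FPKM with vehicle and 1369, 1340.4 and 1592 FPKM with TGFB1 (log2 change 3.21 ± 0.08, adjusted p = 2.7e-09). S100g, the vitamin D-dependent calcium carrier of enterocytes, rose from 244 ± 7.15 to 682 ± 45.2 FPKM (log2 change 1.48 ± 0.05, adjusted p = 1.6e-09).

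YAP is a transcriptional coactivator held back by the Hippo kinases and released in injured or stretched epithelium, where it acts with TEAD factors. Of the genes known as its targets, 22 of 22 measured members were called higher and 0 lower, with a median log2 change of 1.26. Cyr61, a secreted matricellular protein, stood at 5.79, 7.49 and 7.52 FPKM with vehicle and 75.0, 80.7 and 88.4 FPKM with TGFB1 (log2 change 3.38 ± 0.09, adjusted p = 2.9e-09). F3, the gene of tissue factor, stood at 31.7, 30.3 and 32.7 FPKM with vehicle and 298, 296 and 339 FPKM with TGFB1 (log2 change 3.26 ± 0.05, adjusted p = 2.7e-11). Ajuba, a LIM-domain protein that itself inhibits the Hippo kinases, stood at 8.23, 8.04 and 8.11 FPKM with vehicle and 55.2, 54.7 and 57.4 FPKM with TGFB1 (log2 change 2.64 ± 0.04, adjusted p = 1.7e-11). Ctgf, also a TGFB target in many cells, rose from 1.12 ± 0.387 to 12.4 ± 1.47 FPKM (log2 change 2.68 ± 0.13, adjusted p = 5.0e-08). All 3 TGFB1 libraries lay above all 3 vehicle libraries for these 4 genes.

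The 250 bases before the start sites of the genes of 9 lists were read from the RefSeq promoter table (GRCm38.p6, not the files' own coordinates). They were searched on both strands for 7 short known motifs. The lists come from textbook knowledge of each pathway, so a share describes the list and not its response to TGFB1. The shares given are of chosen pairs of motif and list, with no test, and 11481 of the windows belong to genes measured here. GGAATG is the letter core of the TEAD motif. It lay in 47.4% of the 19 windows found for 17 of the 22 YAP target genes, and in 12.6% of all 32851 windows in the table (10.9% for genes measured). TGANTCA is the motif of the AP-1 factors, the FOS and JUN families. It lay in 30.8% of the 26 windows found for 20 of the 27 injury-associated genes and in 6.75% of all windows (528 of the 11481 for genes measured). CAGACA, which holds the letters of the SMAD motif, lay in 4 of the 20 windows found for 10 of the 16 TGFB feedback genes. This is near its share of 17.1% of all windows (13.3% for genes measured). A gene can have several windows, so windows are not independent promoters. CACGTG, the E-box, lay in 31.8% of the 22 windows found for 16 of the 21 AP-1 and early response factors. It lay in 6.02% of all windows (8.51% for genes measured). A match is a description of letters and no binding site. Cyr61 and Ajuba are shown for GGAATG and Cldn4 and F3 for TGANTCA, with matches on either strand in capitals, read 5′ to 3′ toward the start site.
Cyr61 (chr3:145649986-145650235, minus strand): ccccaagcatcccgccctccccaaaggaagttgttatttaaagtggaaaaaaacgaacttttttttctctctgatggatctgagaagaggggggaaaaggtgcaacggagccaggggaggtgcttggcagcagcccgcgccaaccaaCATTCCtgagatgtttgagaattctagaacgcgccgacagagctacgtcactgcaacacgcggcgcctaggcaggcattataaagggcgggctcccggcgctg
Ajuba (chr14:54577662-54577911, minus strand): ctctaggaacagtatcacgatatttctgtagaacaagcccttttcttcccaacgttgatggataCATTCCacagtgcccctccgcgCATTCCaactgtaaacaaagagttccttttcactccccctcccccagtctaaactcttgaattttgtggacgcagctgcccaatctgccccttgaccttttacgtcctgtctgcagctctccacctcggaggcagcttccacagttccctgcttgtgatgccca
Cldn4 (chr5:134946935-134947184, minus strand): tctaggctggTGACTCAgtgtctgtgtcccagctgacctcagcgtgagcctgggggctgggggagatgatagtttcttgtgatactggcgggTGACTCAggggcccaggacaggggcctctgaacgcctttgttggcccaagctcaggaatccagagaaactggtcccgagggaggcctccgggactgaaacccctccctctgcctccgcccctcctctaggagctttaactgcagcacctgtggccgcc
F3 (chr3:121723287-121723536, plus strand): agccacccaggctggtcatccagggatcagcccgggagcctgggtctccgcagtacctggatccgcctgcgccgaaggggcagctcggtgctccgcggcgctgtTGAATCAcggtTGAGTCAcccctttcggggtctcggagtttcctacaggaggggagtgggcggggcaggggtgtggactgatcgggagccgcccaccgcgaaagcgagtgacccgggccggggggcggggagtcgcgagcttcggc

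Genes of the sheet on which epithelia rest, and of what holds cells to it, rose together. Of the basement membrane genes, 11 of 14 measured members were called higher and 2 lower, with a median log2 change of 0.90. Lamb3 encodes the beta chain that joins the Lama3 chain in the laminin of hemidesmosomes. It stood at 24.5, 23.1 and 22.4 FPKM with vehicle and 93.7, 97.4 and 105 FPKM with TGFB1 (log2 change 2.03 ± 0.05, adjusted p = 2.7e-10), with no overlap between the groups. Col18a1, a basement membrane collagen, rose from 0.509 ± 0.102 to 5.07 ± 0.0995 FPKM (log2 change 2.01 ± 0.08, adjusted p = 5.8e-09). The large proteoglycan gene Hspg2 fell from 4.70 ± 0.0306 to 0.574 ± 0.0412 FPKM (log2 change -1.86 ± 0.07, adjusted p = 5.3e-09), and Nid2, a linker of laminin and collagen, fell from 5.45 ± 0.501 to 3.25 ± 0.239 FPKM (log2 change -0.60 ± 0.08, adjusted p = 4.5e-05).

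All 10 of 10 measured integrins were called higher, with a median log2 change of 1.27. Itgb6, whose product pairs with that of Itgav and can free latent TGFB, stood at 3.32, 3.05 and 3.67 FPKM with vehicle and 29.8, 30.5 and 35.2 FPKM with TGFB1 (log2 change 2.92 ± 0.08, adjusted p = 3.8e-10). Itgav rose from 3.23 ± 0.114 to 15.2 ± 1.28 FPKM (log2 change 1.94 ± 0.07, adjusted p = 1.9e-09) and Itgb5, another partner of it, from 6.19 ± 0.635 to 29.3 ± 1.61 FPKM (log2 change 2.07 ± 0.07, adjusted p = 1.6e-09). The collagen receptor Itga2 rose from 6.40 ± 0.339 to 21.0 ± 1.81 FPKM (log2 change 1.57 ± 0.07, adjusted p = 7.7e-09). Itga3, a laminin receptor, rose from 58.7 ± 0.836 to 106 ± 5.97 FPKM (log2 change 0.84 ± 0.04, adjusted p = 3.5e-08).

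Among secreted matrix and remodelling genes, 12 of 16 measured members were called higher and 4 lower, with a median log2 change of 1.18. Thbs1, thrombospondin, stood at 2.79, 3.03 and 2.73 FPKM with vehicle and 65.4, 64.3 and 74.4 FPKM with TGFB1 (log2 change 4.16 ± 0.06, adjusted p = 1.5e-11). Fn1, fibronectin, stood at 0.179, 0.217 and 0.277 FPKM with vehicle and 6.07, 7.32 and 6.78 FPKM with TGFB1 (log2 change 2.65 ± 0.09, adjusted p = 1.3e-09). The membrane protease Adam8 rose from 1.38 ± 0.225 to 14.4 ± 0.469 FPKM (log2 change 2.69 ± 0.08, adjusted p = 5.6e-10) and the protease inhibitor Timp3 from 1.81 ± 0.442 to 14.5 ± 0.519 FPKM (log2 change 2.48 ± 0.10, adjusted p = 8.4e-09). The enzymes that hydroxylate collagen moved the other way: P4ha1 fell from 8.56 ± 0.103 to 3.69 ± 0.332 FPKM (log2 change -1.03 ± 0.07, adjusted p = 1.8e-07), and P4ha2 from 9.82 ± 0.452 to 4.46 ± 0.498 FPKM (log2 change -0.99 ± 0.08, adjusted p = 5.9e-07). Col1a1, the fibroblast collagen, stayed under 1 FPKM in all 6 libraries. The part of the mesenchymal markers' rise in these matrix values was not tested.

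The plasminogen system, which turns on matrix proteolysis at the cell surface, rose in 7 of 8 measured members (median log2 change 1.66). Plaur, the receptor of urokinase, stood at 17.6, 19.2 and 20.2 FPKM with vehicle and 129, 128 and 154 FPKM with TGFB1 (log2 change 2.78 ± 0.08, adjusted p = 1.5e-09). Its ligand gene Plau rose from 0.693 ± 0.175 to 4.45 ± 0.377 FPKM (log2 change 1.69 ± 0.10, adjusted p = 7.5e-08). Serpinb5, known as maspin, rose by a log2 change of 3.23 ± 0.08 (adjusted p = 3.3e-10). Anxa2 and S100a10 form a complex that docks plasminogen: Anxa2 rose from 493 ± 6.81 to 1976 ± 126 FPKM (log2 change 2.00 ± 0.05, adjusted p = 1.7e-10), and S100a10 from 369 ± 10.1 to 962 ± 49.2 FPKM (log2 change 1.38 ± 0.04, adjusted p = 1.1e-09). Tissue activator Plat rose from 8.51 ± 0.992 to 17.7 ± 1.97 FPKM (log2 change 0.97 ± 0.09, adjusted p = 4.3e-06), and Serpinf2, the plasmin inhibitor, was not called at 1.48, 1.38 and 1.44 FPKM with vehicle and 1.56, 1.10 and 1.12 FPKM with TGFB1.

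Of the actin and contractility genes, 28 of 32 measured members were called higher and 2 lower, with a median log2 change of 0.95. Pdlim7, an adaptor on actin filaments, stood at 18.4, 17.9 and 16.2 FPKM with vehicle and 175, 179 and 201 FPKM with TGFB1 (log2 change 3.33 ± 0.06, adjusted p = 5.5e-11). The crosslinker Flna rose from 12.3 ± 0.361 to 64.7 ± 6.91 FPKM (log2 change 2.30 ± 0.07, adjusted p = 9.9e-10) and Cnn2, a calponin, from 25.0 ± 0.832 to 86.4 ± 8.05 FPKM (log2 change 1.75 ± 0.06, adjusted p = 2.4e-09). Actb, the cytoplasmic actin, rose from 1788 ± 52.1 to 4121 ± 181 FPKM (log2 change 1.20 ± 0.04, adjusted p = 2.1e-09). The groups did not overlap for these 4 genes. Myl9, a myosin light chain, was called lower with overlapping groups, at 2.71, 4.69 and 3.84 FPKM with vehicle and 1.53, 2.88 and 2.21 FPKM with TGFB1 (log2 change -0.57 ± 0.19, adjusted p = 0.0255). Without vehicle library 2 or 3, or TGFB1 library 1 or 3, Myl9 was not called (adjusted p from 0.0661 to 0.0823). Cnn3 fell from 85.9 ± 2.92 to 72.1 ± 1.66 FPKM (log2 change -0.25 ± 0.04, adjusted p = 1.6e-04).

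Keratins, the filaments of epithelial cells, followed. For keratins 10 of 11 measured members were called higher and 1 lower, with a median log2 change of 1.78. Krt7, a keratin of ducts and of stratified or injured lining, stood at 282, 275 and 273 FPKM with vehicle and 1649, 1655 and 1776 FPKM with TGFB1 (log2 change 2.61 ± 0.04, adjusted p = 1.5e-11). The simple-epithelium keratins rose too, Krt18 from 709.6 ± 22.7 to 2704 ± 224 FPKM (log2 change 1.93 ± 0.06, adjusted p = 7.6e-10) and Krt19 from 2182 ± 34.3 to 5375 ± 192 FPKM (log2 change 1.30 ± 0.04, adjusted p = 6.8e-10). Krt14, a keratin of basal layers in skin, went from near 0 to 12.0, 9.96 and 12.6 FPKM (vehicle 0.145, 0.0752 and 0.0745 FPKM, log2 change 3.51 ± 0.09, adjusted p = 3.9e-10). Krt15 fell from 2.53 ± 0.313 to 0.906 ± 0.0933 FPKM (log2 change -0.89 ± 0.09, adjusted p = 8.2e-06). Genes of the cornified envelope of skin rose in 12 of 14 measured members (median log2 change 1.08). Sprr1a rose from 162 ± 11.1 to 526 ± 20.1 FPKM (log2 change 1.70 ± 0.05, adjusted p = 9.0e-10) and the junction protein Jup from 143 ± 1.49 to 353 ± 12.3 FPKM (log2 change 1.29 ± 0.04, adjusted p = 5.6e-10). The Sprr2 genes are near-identical copies, so reads among them may be split and their single values are uncertain.

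Junction genes rose more often than they fell. For claudins and tight junctions 16 of 18 measured members were called higher and 2 lower, with a median log2 change of 0.55. Cldn23 rose from 18.2 ± 1.48 to 50.1 ± 2.82 FPKM (log2 change 1.41 ± 0.06, adjusted p = 1.2e-08) and the adhesion molecule F11r from 99.6 ± 3.96 to 260.3 ± 22.2 FPKM (log2 change 1.37 ± 0.06, adjusted p = 1.0e-08). The pore-forming claudins were called lower, Cldn15 from 316 ± 2.00 to 201 ± 3.53 FPKM (log2 change -0.65 ± 0.03, adjusted p = 2.5e-08) and Cldn2 from 157 ± 3.92 to 127 ± 6.85 FPKM (log2 change -0.31 ± 0.04, adjusted p = 8.8e-05). Of 14 genes of epithelial-mesenchymal transition and adherens junctions, 8 were called higher and 3 lower. The rises included junction genes: Ctnnb1, beta-catenin, rose from 300.4 ± 4.40 to 801 ± 36.8 FPKM (log2 change 1.41 ± 0.04, adjusted p = 5.8e-10), and Ctnnd1, p120-catenin, from 115 ± 3.47 to 262 ± 5.00 FPKM (log2 change 1.18 ± 0.04, adjusted p = 9.6e-10). Epcam, an adhesion molecule of epithelia, rose from 634 ± 14.5 to 1129.9 ± 46.0 FPKM (log2 change 0.83 ± 0.04, adjusted p = 1.8e-08). The chromatin factors Hmga2 and Hmga1, high in growing cells, fell from 6.40 ± 0.246 to 1.25 ± 0.229 FPKM (log2 change -1.73 ± 0.09, adjusted p = 2.6e-08) and from 129 ± 10.1 to 65.7 ± 4.70 FPKM (log2 change -0.96 ± 0.07, adjusted p = 5.0e-07). Snai3, a family member of the transition factors, rose from 1.80 ± 0.448 to 6.77 ± 0.212 FPKM (log2 change 1.48 ± 0.10, adjusted p = 3.5e-07).

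**Figure D3:**
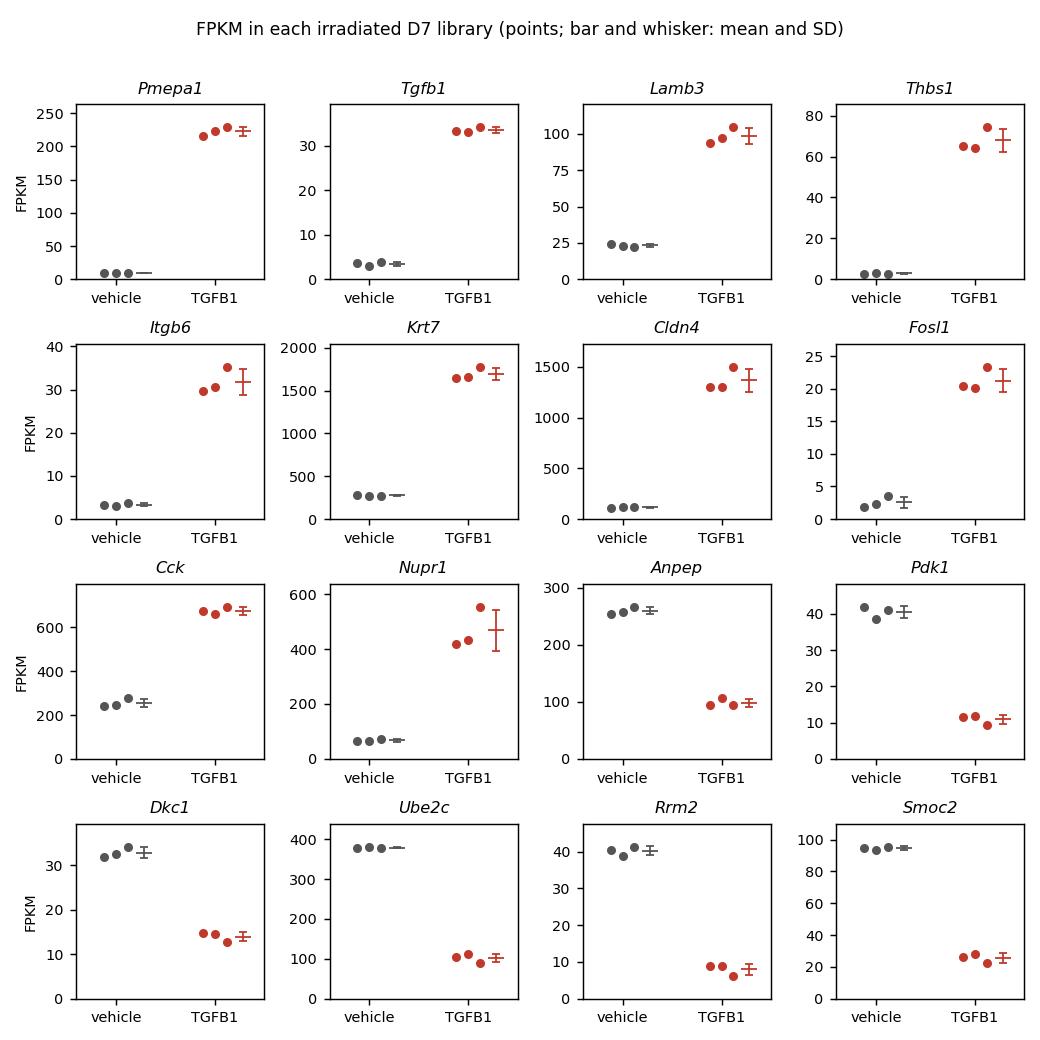
FPKM (y axes, from 0) of 16 genes in the 3 vehicle (grey) and 3 TGFB1 (red) libraries of irradiated D7 organoids; points are libraries, the bar and whisker the mean and SD. No vehicle library overlaps a TGFB1 library for any of the 16 genes, which were chosen among called genes. The same held for 78.2% of all genes measured.

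Crypt stem cells are marked by Wnt-driven genes at the crypt base. Of the crypt stem cell genes, 5 of 23 measured members were called higher and 13 lower, with a median log2 change of -0.29. Smoc2, a secreted matricellular protein, stood at 95.0, 93.4 and 95.5 FPKM with vehicle and 26.5, 28.3 and 22.5 FPKM with TGFB1 (log2 change -1.84 ± 0.07, adjusted p = 1.1e-08). Rgmb, a BMP co-receptor, fell from 24.5 ± 1.04 to 8.45 ± 0.740 FPKM (log2 change -1.43 ± 0.06, adjusted p = 1.1e-08). The list was divided, since Sox9, a crypt transcription factor, rose from 29.5 ± 1.02 to 52.4 ± 2.17 FPKM (log2 change 0.81 ± 0.05, adjusted p = 5.3e-08) and Prom1, a surface glycoprotein, from 41.6 ± 2.54 to 91.5 ± 3.76 FPKM (log2 change 1.12 ± 0.05, adjusted p = 1.2e-08). Nkd1, a feedback inhibitor of Wnt, rose from 0.844 ± 0.0982 to 4.66 ± 0.420 FPKM (log2 change 1.62 ± 0.09, adjusted p = 3.9e-08).

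Wnt ligands, receptors and inhibitors were called higher in 11 and lower in 3 of 20 members. Ligand genes rose from low levels, Wnt10a from 0.245 ± 0.138 to 6.47 ± 0.577 FPKM (log2 change 2.59 ± 0.10, adjusted p = 4.8e-09) and Wnt7a from 0.664 ± 0.164 to 5.68 ± 0.111 FPKM (log2 change 2.01 ± 0.09, adjusted p = 9.5e-09). The secreted Wnt inhibitor Sfrp5 fell from 6.92 ± 0.665 to 1.43 ± 0.242 FPKM (log2 change -1.71 ± 0.09, adjusted p = 4.7e-08), and the receptor Fzd5 from 47.4 ± 1.05 to 33.1 ± 0.713 FPKM (log2 change -0.50 ± 0.04, adjusted p = 6.7e-07). The Notch pathway, which keeps crypt cells from the secretory fate, had 5 members called higher and 6 lower of 16, and 3 lower without vehicle library 1 or 3. The main counts lie near the shares over all genes, 35.8% higher and 39.7% lower. The receptor Notch2 rose from 3.16 ± 0.181 to 5.48 ± 0.156 FPKM (log2 change 0.64 ± 0.07, adjusted p = 6.3e-06), and the Notch target Nrarp fell from 27.6 ± 1.26 to 18.5 ± 0.839 FPKM (log2 change -0.55 ± 0.05, adjusted p = 2.7e-06).

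Most factors that specify the secretory cells fell, while the products of 3 of the 4 cell types mostly rose. Of the secretory lineage factors, 2 of 17 measured members were called higher and 11 lower, with a median log2 change of -0.26. Atoh1, which starts the secretory fate, stood at 10.8, 11.1 and 11.2 FPKM with vehicle and 6.57, 5.72 and 4.59 FPKM with TGFB1 (log2 change -0.87 ± 0.10, adjusted p = 1.5e-05). Neurog3, which starts the enteroendocrine fate, stood at 11.8, 12.1 and 12.0 FPKM with vehicle and 6.39, 5.07 and 4.76 FPKM with TGFB1 (log2 change -1.02 ± 0.09, adjusted p = 1.4e-06). The vehicle and TGFB1 libraries did not overlap for either. Creb3l1, a secretory pathway factor, fell from 32.8 ± 1.32 to 18.6 ± 2.00 FPKM (log2 change -0.79 ± 0.07, adjusted p = 2.4e-06), whereas the pioneer factor Foxa1 rose from 27.1 ± 0.684 to 77.7 ± 2.65 FPKM (log2 change 1.49 ± 0.04, adjusted p = 4.8e-10).

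Enteroendocrine cells release gut hormones. Of their products 21 of 23 measured members were called higher and 1 lower, with a median log2 change of 0.83. Cck, cholecystokinin, stood at 240.2, 246 and 276 FPKM with vehicle and 674, 659 and 693 FPKM with TGFB1 (log2 change 1.41 ± 0.05, adjusted p = 3.0e-09). Gcg, the proglucagon gene that yields GLP-1, stood at 116, 121 and 131 FPKM with vehicle and 284, 305 and 315 FPKM with TGFB1 (log2 change 1.29 ± 0.05, adjusted p = 8.2e-09). Cpe, a hormone-processing peptidase, rose from 17.2 ± 1.14 to 45.5 ± 1.83 FPKM (log2 change 1.36 ± 0.05, adjusted p = 5.0e-09). All 3 TGFB1 libraries were higher for each of the 3 genes. Ddc, the decarboxylase of serotonin synthesis, was the one product called lower, from 57.3 ± 1.32 to 38.3 ± 1.36 FPKM (log2 change -0.57 ± 0.04, adjusted p = 3.7e-07).

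Paneth cells secrete antimicrobial proteins at the crypt base. Of their products 16 of 21 measured members were called higher and 0 lower, with a median log2 change of 0.75. The median was 0.41 after quantile normalization. The largest change on the list was that of Nupr1, a stress-responsive nuclear protein and not a secreted product. It stood at 66.1, 64.7 and 73.9 FPKM with vehicle and 417, 432 and 553 FPKM with TGFB1 (log2 change 2.75 ± 0.11, adjusted p = 5.3e-07). Mmp7, the protease that activates defensins, rose from 73.5 ± 5.18 to 178 ± 7.43 FPKM (log2 change 1.26 ± 0.05, adjusted p = 7.1e-09), and the lectin Reg3b from 350.2 ± 70.7 to 758 ± 30.5 FPKM (log2 change 1.13 ± 0.14, adjusted p = 5.9e-04). Lyz2, a lysozyme gene whose reads may be shared with its close relative, rose from 2.88 ± 0.516 to 8.88 ± 0.397 FPKM (log2 change 1.36 ± 0.09, adjusted p = 2.2e-07). The defensin genes are near-identical, so their single values are uncertain and are not given.

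Tuft cells, the chemosensory cells, showed rises in 10 of 11 genes, with 1 lower and a median log2 change of 0.83. They stand at low levels, and 1 of them was called higher where a mean of 5 FPKM or more was required. Avil, an actin-bundling protein of their microvilli, rose from 2.08 ± 0.316 to 5.41 ± 0.544 FPKM (log2 change 1.06 ± 0.10, adjusted p = 2.3e-06). Il17rb, the receptor of IL-25 in these cells, fell from 1.77 ± 0.340 to 1.08 ± 0.209 FPKM (log2 change -0.41 ± 0.12, adjusted p = 0.00863). Goblet cell products went mostly down: 4 of 15 measured members were called higher and 10 lower, with a median log2 change of -0.41 (-0.26 without TGFB1 library 3). Agr2, a disulfide isomerase needed for mucin, stood at 188, 191 and 193 FPKM with vehicle and 70.1, 70.4 and 63.0 FPKM with TGFB1 (log2 change -1.48 ± 0.05, adjusted p = 9.6e-10). Clca4 stood at 329, 325 and 339 FPKM with vehicle and 85.6, 91.9 and 88.3 FPKM with TGFB1 (log2 change -1.89 ± 0.04, adjusted p = 6.3e-11). Fcgbp, a mucus component, fell from 144 ± 5.76 to 87.5 ± 4.13 FPKM (log2 change -0.71 ± 0.04, adjusted p = 1.4e-07). Membrane mucins of the surface were called higher, Muc13 from 561 ± 4.64 to 868 ± 3.57 FPKM (log2 change 0.63 ± 0.03, adjusted p = 2.6e-08) and Muc4 from 6.18 ± 0.0877 to 12.3 ± 0.250 FPKM (log2 change 0.89 ± 0.05, adjusted p = 5.9e-08).

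Absorptive enterocytes carry digestive enzymes, nutrient carriers and the lipid export machinery, and these parts moved differently. Of the brush border enzymes and structural genes, 5 of 19 measured members were called higher and 13 lower, with a median log2 change of -0.40. Anpep, the aminopeptidase N, stood at 254, 257 and 266 FPKM with vehicle and 94.4, 107 and 94.3 FPKM with TGFB1 (log2 change -1.39 ± 0.05, adjusted p = 2.5e-09). Enpep, glutamyl aminopeptidase, fell from 67.2 ± 1.55 to 24.5 ± 1.60 FPKM (log2 change -1.42 ± 0.05, adjusted p = 2.0e-09). Enpp3, a surface nucleotide pyrophosphatase, rose from 7.24 ± 0.802 to 26.2 ± 2.28 FPKM (log2 change 1.73 ± 0.08, adjusted p = 2.2e-08), and Alpi, intestinal alkaline phosphatase, from 1002 ± 38.9 to 1397 ± 34.2 FPKM (log2 change 0.48 ± 0.04, adjusted p = 1.2e-06). Alpi was not called when all 18 RNA libraries shared one estimate of the spread (adjusted p = 0.0551). Vil1, the villin that bundles microvillus actin, rose from 337 ± 5.03 to 530.0 ± 13.8 FPKM (log2 change 0.65 ± 0.04, adjusted p = 4.1e-08).

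Of the sugar, peptide and amino acid carriers, 7 of 22 measured members were called higher and 12 lower, with a median log2 change of -0.32. Slc5a1, the sodium-glucose carrier SGLT1, stood at 362, 351 and 366 FPKM with vehicle and 221, 211 and 209.5 FPKM with TGFB1 (log2 change -0.75 ± 0.04, adjusted p = 2.0e-08). The amino acid carriers that feed growing cells fell, Slc7a5 from 35.4 ± 0.896 to 16.4 ± 0.698 FPKM (log2 change -1.07 ± 0.05, adjusted p = 8.3e-09) and Slc1a5 from 62.0 ± 1.73 to 27.4 ± 0.793 FPKM (log2 change -1.15 ± 0.04, adjusted p = 2.3e-09). Slc1a1, a glutamate carrier, fell from 9.71 ± 0.739 to 1.50 ± 0.185 FPKM (log2 change -2.10 ± 0.08, adjusted p = 3.8e-09). Slc6a8, the creatine carrier, rose from 45.3 ± 1.20 to 116 ± 2.14 FPKM (log2 change 1.34 ± 0.04, adjusted p = 4.6e-10).

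Lipid absorption and apolipoprotein genes were called higher in 10 and lower in 5 of 21 members (median log2 change 0.18). Apob, the backbone of chylomicrons, stood at 113, 103 and 111 FPKM with vehicle and 353, 346 and 379 FPKM with TGFB1 (log2 change 1.71 ± 0.05, adjusted p = 4.9e-10). Apoa1, the main protein of high-density lipoprotein, stood at 2158, 2253 and 2438 FPKM with vehicle and 6653, 6277 and 6516 FPKM with TGFB1 (log2 change 1.51 ± 0.05, adjusted p = 1.2e-09). Both genes lay higher in each TGFB1 library. Plin2, a lipid droplet coat protein, rose from 55.4 ± 1.44 to 153 ± 7.07 FPKM (log2 change 1.45 ± 0.04, adjusted p = 6.6e-10), and Apobec1, which edits the Apob message, from 14.1 ± 1.23 to 33.9 ± 1.04 FPKM (log2 change 1.21 ± 0.06, adjusted p = 2.5e-08). Fabp2 fell from 564 ± 30.1 to 481 ± 7.29 FPKM (log2 change -0.23 ± 0.04, adjusted p = 6.4e-04) and Npc1l1, the cholesterol uptake channel, from 92.4 ± 1.28 to 81.5 ± 1.21 FPKM (log2 change -0.18 ± 0.03, adjusted p = 6.4e-04).

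Genes of cells near the villus tip, several of them in purine handling, were called higher in 14 of 17 members and lower in 2 (median log2 change 0.77). Ada, adenosine deaminase, stood at 46.0, 46.2 and 50.0 FPKM with vehicle and 301, 318 and 321 FPKM with TGFB1 (log2 change 2.70 ± 0.04, adjusted p = 1.8e-11). Nt5e, which makes adenosine at the cell surface, rose from 0.334 ± 0.0571 to 5.48 ± 0.592 FPKM (log2 change 2.28 ± 0.09, adjusted p = 5.1e-09), and the nucleoside carrier Slc28a2 from 1.88 ± 0.0974 to 11.2 ± 0.511 FPKM (log2 change 2.08 ± 0.06, adjusted p = 9.5e-10). Mxd1, an antagonist of MYC, rose from 17.4 ± 0.901 to 72.9 ± 3.91 FPKM (log2 change 2.00 ± 0.05, adjusted p = 3.6e-10). The nuclear receptor Nr1i3 fell from 27.2 ± 1.80 to 19.2 ± 1.27 FPKM (log2 change -0.48 ± 0.06, adjusted p = 3.8e-05). Of the intestinal identity factors, 15 were called higher and 10 lower of 28. Sox4 rose from 47.2 ± 1.01 to 199 ± 8.51 FPKM (log2 change 2.05 ± 0.04, adjusted p = 5.3e-11) and Foxq1 from 20.7 ± 0.229 to 106 ± 6.27 FPKM (log2 change 2.31 ± 0.05, adjusted p = 6.1e-11), while Vdr, the vitamin D receptor, fell from 176 ± 3.49 to 78.1 ± 2.52 FPKM (log2 change -1.16 ± 0.04, adjusted p = 1.2e-09) and Hnf4a from 367 ± 6.86 to 306 ± 5.55 FPKM (log2 change -0.26 ± 0.03, adjusted p = 4.6e-05).

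Every measured gene of the mitosis and DNA replication lists was called lower. Of 62 mitosis genes 62 were called lower, with a median log2 change of -1.60, and of 45 DNA replication genes 45 were called lower, with a median of -1.29. Ccna2, the cyclin of S phase and early mitosis, stood at 108, 102 and 111 FPKM with vehicle and 22.9, 24.6 and 19.4 FPKM with TGFB1 (log2 change -2.22 ± 0.08, adjusted p = 6.2e-09). Ube2c, the conjugating enzyme of the anaphase-promoting complex, stood at 379, 381 and 377 FPKM with vehicle and 104, 113 and 90.5 FPKM with TGFB1 (log2 change -1.89 ± 0.07, adjusted p = 7.5e-09). Rrm2, a subunit of ribonucleotide reductase, stood at 40.4, 38.9 and 41.3 FPKM with vehicle and 8.79, 8.96 and 6.30 FPKM with TGFB1 (log2 change -2.21 ± 0.11, adjusted p = 1.7e-07). Every TGFB1 library was below every vehicle library for the 3 genes. Tk1, thymidine kinase, fell from 48.7 ± 3.07 to 9.22 ± 1.42 FPKM (log2 change -2.29 ± 0.10, adjusted p = 3.6e-08) and Dut, the dUTPase, from 27.6 ± 1.22 to 7.81 ± 0.785 FPKM (log2 change -1.70 ± 0.07, adjusted p = 5.1e-09). Spc24 of the kinetochore fell from 24.3 ± 1.94 to 4.14 ± 1.07 FPKM (log2 change -2.32 ± 0.14, adjusted p = 8.6e-07), and Birc5, survivin of the chromosomal passenger complex, from 104 ± 2.25 to 20.6 ± 2.62 FPKM (log2 change -2.29 ± 0.08, adjusted p = 5.3e-09). Pold2, a DNA polymerase subunit, fell from 101 ± 2.49 to 34.5 ± 3.42 FPKM (log2 change -1.52 ± 0.06, adjusted p = 1.0e-08).

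The same promoter search was made for these 2 lists. CCAAT is the box bound by NF-Y, and TTTGAA is the letter form of the cell cycle homology region of genes that peak in G2 and mitosis. Among mitosis genes (52 of 62 matched, 56 windows) CCAAT lay in 71.4% and TTTGAA in 41.1% of windows, against 33.9% and 16.0% of all windows and 35.7% and 10.6% of those of genes measured. CCAAT was not particular to mitosis genes, since it lay in 83.3% of the 18 windows found for 15 of the 23 cholesterol synthesis genes. TTCCCGC is a common form of the E2F site. Among DNA replication genes (36 of 45 matched, 42 windows) it lay in 26.2% of windows, against 3.82% of all and 6.80% for genes measured. Ccnb2 and Cdk1, a mitotic cyclin and its kinase, are shown for CCAAT and TTTGAA, and Prim1, the primase subunit, for TTCCCGC, again from RefSeq (GRCm38.p6), with matches on either strand in capitals.
Ccnb2 (chr9:70421555-70421804, minus strand): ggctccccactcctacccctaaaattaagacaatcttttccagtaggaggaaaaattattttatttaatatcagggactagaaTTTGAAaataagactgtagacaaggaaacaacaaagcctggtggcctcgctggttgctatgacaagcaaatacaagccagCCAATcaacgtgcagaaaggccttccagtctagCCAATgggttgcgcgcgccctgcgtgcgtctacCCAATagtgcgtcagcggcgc
Cdk1 (chr10:69352913-69353162, minus strand): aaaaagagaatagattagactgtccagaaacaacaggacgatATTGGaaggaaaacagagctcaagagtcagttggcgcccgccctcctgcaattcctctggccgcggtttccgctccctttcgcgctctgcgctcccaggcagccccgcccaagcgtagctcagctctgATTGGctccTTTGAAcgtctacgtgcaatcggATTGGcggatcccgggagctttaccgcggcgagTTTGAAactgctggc
Prim1 (chr10:128014965-128015214, plus strand): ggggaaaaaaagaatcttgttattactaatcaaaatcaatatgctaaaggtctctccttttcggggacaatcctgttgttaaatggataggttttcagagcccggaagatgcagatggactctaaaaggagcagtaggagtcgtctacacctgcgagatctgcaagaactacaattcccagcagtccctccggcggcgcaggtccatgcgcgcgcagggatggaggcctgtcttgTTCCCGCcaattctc

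Cdk1 fell from 30.3 ± 0.813 to 8.44 ± 0.687 FPKM (log2 change -1.73 ± 0.06, adjusted p = 1.7e-09), Ccnb2 from 54.8 ± 2.97 to 14.0 ± 1.76 FPKM (log2 change -1.90 ± 0.08, adjusted p = 1.4e-08) and Prim1 from 23.7 ± 2.03 to 6.94 ± 0.916 FPKM (log2 change -1.64 ± 0.09, adjusted p = 9.4e-08). These 3 were chosen after their values were seen, because their windows hold the motifs. Among cyclins, CDK inhibitors and E2F genes 9 of 36 measured members were called higher and 24 lower, with a median log2 change of -0.39. E2f8, a repressor of late S phase, fell from 32.8 ± 0.551 to 8.73 ± 1.16 FPKM (log2 change -1.80 ± 0.08, adjusted p = 1.2e-08), and Cdkn3 from 29.4 ± 2.72 to 8.05 ± 0.737 FPKM (log2 change -1.75 ± 0.08, adjusted p = 1.3e-08). Among the members called higher, the MYC family gene Mycn rose from 3.08 ± 0.223 to 18.7 ± 1.13 FPKM (log2 change 2.27 ± 0.07, adjusted p = 5.8e-10), and Ccng2, a cyclin of arrested cells, from 9.08 ± 0.414 to 23.7 ± 1.39 FPKM (log2 change 1.29 ± 0.06, adjusted p = 9.8e-09). Of the DNA damage and repair genes, 1 of 50 measured members were called higher and 45 lower, with a median log2 change of -0.85. H2afx, the histone that marks breaks, stood at 223, 221 and 228 FPKM with vehicle and 85.8, 83.3 and 67.4 FPKM with TGFB1 (log2 change -1.50 ± 0.08, adjusted p = 2.1e-07), lower in each TGFB1 library. Fanca, of the crosslink repair pathway, fell from 6.86 ± 0.0965 to 1.58 ± 0.148 FPKM (log2 change -1.61 ± 0.07, adjusted p = 9.5e-09).

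The p53 target genes, which irradiation is known to induce, were divided: 19 of 33 measured members were called higher and 8 lower, with a median log2 change of 0.31. Cdkn1a, the p21 inhibitor of cell division, stood at 174, 172 and 173 FPKM with vehicle and 329, 316 and 356 FPKM with TGFB1 (log2 change 0.94 ± 0.04, adjusted p = 1.6e-08). Plk2 rose from 5.91 ± 0.299 to 25.3 ± 2.19 FPKM (log2 change 1.92 ± 0.07, adjusted p = 1.9e-09), Perp, a desmosome protein, from 113 ± 4.43 to 270.3 ± 16.3 FPKM (log2 change 1.26 ± 0.05, adjusted p = 4.4e-09) and Pmaip1, the death protein NOXA, from 13.2 ± 0.439 to 34.0 ± 2.46 FPKM (log2 change 1.30 ± 0.06, adjusted p = 9.4e-09). Aen, a nuclease, fell from 9.92 ± 1.17 to 5.31 ± 0.301 FPKM (log2 change -0.79 ± 0.08, adjusted p = 6.5e-06). For cell death genes 24 of 32 measured members were called higher and 4 lower, with a median log2 change of 0.48. Bok, a killer of the BCL2 family, stood at 14.5, 14.7 and 16.2 FPKM with vehicle and 118, 117 and 138 FPKM with TGFB1 (log2 change 2.95 ± 0.07, adjusted p = 2.5e-10). Gsdmd, the pore of pyroptosis, stood at 41.2, 40.7 and 42.1 FPKM with vehicle and 177, 180.3 and 181 FPKM with TGFB1 (log2 change 2.09 ± 0.03, adjusted p = 1.8e-11). The groups did not overlap for either gene. The BH3 genes Bmf and Bcl2l11 rose from 1.40 ± 0.230 to 11.0 ± 0.0976 FPKM (log2 change 2.33 ± 0.08, adjusted p = 1.6e-09) and from 3.57 ± 0.221 to 14.8 ± 0.297 FPKM (log2 change 1.79 ± 0.06, adjusted p = 1.2e-09). Bcl2, an inhibitor of death, fell from 1.89 ± 0.172 to 1.29 ± 0.180 FPKM (log2 change -0.34 ± 0.09, adjusted p = 0.00753).

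Genes that build ribosomes fell too. Of 31 ribosome biogenesis genes 0 were called higher and 30 lower, with a median log2 change of -0.85. Dkc1, which modifies ribosomal RNA, stood at 31.9, 32.5 and 34.2 FPKM with vehicle and 14.8, 14.5 and 12.7 FPKM with TGFB1 (log2 change -1.18 ± 0.06, adjusted p = 2.3e-08). Rrp12, an export factor of ribosomal subunits, fell from 10.5 ± 0.275 to 4.03 ± 0.261 FPKM (log2 change -1.20 ± 0.06, adjusted p = 2.6e-08), and Nle1 from 17.9 ± 0.667 to 7.17 ± 1.30 FPKM (log2 change -1.22 ± 0.10, adjusted p = 2.8e-06). Of the cytosolic ribosomal protein genes, 5 of 72 measured members were called higher and 55 lower, with a median log2 change of -0.37, and many of these have pseudogene copies that may take reads. Nuclear genes of oxidative phosphorylation shifted by small steps in 1 direction: 3 of 75 measured members were called higher and 64 lower, with a median log2 change of -0.33. Cyc1, cytochrome c1, fell from 506 ± 11.9 to 313 ± 4.76 FPKM (log2 change -0.69 ± 0.03, adjusted p = 2.5e-08), and Ndufs8 from 285 ± 8.14 to 178 ± 14.0 FPKM (log2 change -0.68 ± 0.05, adjusted p = 8.4e-07).

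Glycolysis and hypoxia genes fell in most cases: 5 of 27 measured members were called higher and 21 lower, with a median log2 change of -0.70. Pdk1, which keeps pyruvate out of mitochondria, stood at 41.9, 38.7 and 41.1 FPKM with vehicle and 11.5, 11.8 and 9.42 FPKM with TGFB1 (log2 change -1.81 ± 0.07, adjusted p = 9.3e-09). Bnip3, a hypoxia-induced mitophagy protein, stood at 29.8, 26.6 and 27.0 FPKM with vehicle and 10.9, 9.40 and 7.78 FPKM with TGFB1 (log2 change -1.48 ± 0.10, adjusted p = 7.5e-07). Slc16a3, the lactate exporter, stood at 136, 133 and 131 FPKM with vehicle and 60.5, 56.1 and 48.9 FPKM with TGFB1 (log2 change -1.26 ± 0.07, adjusted p = 7.5e-08). Vehicle and TGFB1 libraries were apart for these 3. Ndufa4l2 fell from 9.91 ± 0.716 to 1.52 ± 0.543 FPKM (log2 change -2.14 ± 0.14, adjusted p = 6.8e-07). Hif1a, whose protein drives such genes, rose at the RNA level from 32.0 ± 1.34 to 54.9 ± 2.25 FPKM (log2 change 0.76 ± 0.05, adjusted p = 1.1e-07), as did Hk1 from 13.4 ± 0.591 to 21.3 ± 0.193 FPKM (log2 change 0.63 ± 0.05, adjusted p = 5.1e-07) and Pfkfb3 from 12.8 ± 0.269 to 21.8 ± 1.21 FPKM (log2 change 0.72 ± 0.05, adjusted p = 3.4e-07).

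Lipid synthesis genes were called lower more often than higher, with a smaller median change for cholesterol than for fatty acid synthesis. Over all genes, 35.8% were called higher and 39.7% lower, and 8 of the cholesterol synthesis genes were not called. For fatty acid synthesis 4 of 15 measured members were called higher and 10 lower, with a median log2 change of -0.57, and for cholesterol synthesis 3 of 23 measured members were called higher and 12 lower, with a median log2 change of -0.20. Scd1, the stearoyl desaturase, fell from 120.4 ± 4.79 to 51.6 ± 6.60 FPKM (log2 change -1.21 ± 0.08, adjusted p = 1.3e-06), and Fads2 from 399 ± 6.47 to 188 ± 13.3 FPKM (log2 change -1.09 ± 0.05, adjusted p = 1.2e-08). Me1, malic enzyme, rose from 12.8 ± 0.173 to 26.4 ± 0.864 FPKM (log2 change 0.99 ± 0.04, adjusted p = 1.2e-08). Lss, lanosterol synthase, fell from 62.1 ± 1.15 to 38.0 ± 0.393 FPKM (log2 change -0.69 ± 0.04, adjusted p = 3.2e-08), and Fdft1, squalene synthase, rose from 69.9 ± 0.874 to 85.1 ± 3.56 FPKM (log2 change 0.28 ± 0.04, adjusted p = 8.1e-05).

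Of genes of gluconeogenesis, the urea cycle and nitric oxide, 7 of 21 measured members were called higher and 11 lower. Over all genes, 35.8% were called higher and 39.7% lower. The nitric oxide synthase gene Nos2 rose from 3.99 ± 0.268 to 13.1 ± 1.40 FPKM. The mitochondrial steps from ammonia toward citrulline fell: Cps1 stood at 371, 356 and 359.6 FPKM with vehicle and 134, 143 and 114 FPKM with TGFB1 (log2 change -1.47 ± 0.07, adjusted p = 6.8e-08), and Otc at 63.8, 63.5 and 62.0 FPKM with vehicle and 20.4, 22.7 and 19.8 FPKM with TGFB1 (log2 change -1.55 ± 0.05, adjusted p = 1.6e-09). Arg2, mitochondrial arginase, fell from 208 ± 5.88 to 78.0 ± 7.05 FPKM (log2 change -1.41 ± 0.06, adjusted p = 1.2e-08).

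Detoxification families fell in most members. Counts of members called higher and lower were 3 and 16 of 23 glutathione transferases (median log2 change -0.64). For cytochrome P450 genes they were 10 and 17 of 29 (median -0.50). For carboxylesterases they were 2 and 7 of 9 (median -0.75, or -1.35 with a pseudocount of 0.1), and for UDP-glucuronosyl- and sulfotransferases 2 and 11 of 13 (median -0.61). Gstm1 fell from 613 ± 29.4 to 144 ± 5.07 FPKM (log2 change -2.08 ± 0.04, adjusted p = 8.8e-11), Cyp2s1 from 159 ± 6.26 to 41.6 ± 5.03 FPKM (log2 change -1.91 ± 0.08, adjusted p = 2.0e-08) and Ces1f from 64.6 ± 1.71 to 14.4 ± 2.14 FPKM (log2 change -2.10 ± 0.09, adjusted p = 2.5e-08). These are families of near-identical genes, so reads may be split between copies. Cyp21a1, the steroid 21-hydroxylase, rose from near 0 to 8.54 ± 0.510 FPKM (log2 change 3.24 ± 0.08, adjusted p = 2.0e-10). Of aldehyde dehydrogenases and retinoid handling genes, 9 of 31 measured members were called higher and 19 lower, with a median log2 change of -0.20. Their largest fall was that of Rbp7, given above. Against most of the list, Rdh10, which makes retinal, rose from 39.6 ± 1.14 to 209 ± 11.6 FPKM (log2 change 2.37 ± 0.05, adjusted p = 4.4e-11).

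Protein folding genes of the endoplasmic reticulum were called lower in 19 and higher in 5 of 30 members (median log2 change -0.23). Pdia6 fell from 141 ± 1.04 to 71.8 ± 0.789 FPKM (log2 change -0.97 ± 0.03, adjusted p = 1.6e-09) and Hsp90b1 from 283 ± 3.50 to 149 ± 1.71 FPKM (log2 change -0.92 ± 0.03, adjusted p = 2.2e-09), while Eif2ak3, the sensor kinase PERK, rose from 8.95 ± 0.308 to 28.5 ± 2.42 FPKM (log2 change 1.56 ± 0.06, adjusted p = 4.9e-09). Mitochondrial chaperones fell, Hspd1 from 148 ± 2.20 to 48.8 ± 1.08 FPKM (log2 change -1.58 ± 0.03, adjusted p = 1.3e-10) and Hspe1 from 149 ± 11.7 to 60.4 ± 2.24 FPKM (log2 change -1.29 ± 0.06, adjusted p = 1.1e-08), while the inducible Hspa1b rose from 3.02 ± 0.258 to 19.4 ± 2.15 FPKM (log2 change 2.34 ± 0.08, adjusted p = 2.0e-09), with reads possibly shared with its copy Hspa1a. Hmox1, heme oxygenase, rose from 8.80 ± 0.153 to 32.8 ± 2.71 FPKM (log2 change 1.78 ± 0.06, adjusted p = 1.6e-09), and Gsr, glutathione reductase, fell from 127 ± 4.92 to 53.5 ± 1.91 FPKM (log2 change -1.24 ± 0.04, adjusted p = 1.8e-09). Ano1, a calcium-gated chloride channel, rose from 4.49 ± 0.186 to 40.1 ± 1.90 FPKM (log2 change 2.90 ± 0.05, adjusted p = 3.2e-11), and the water channel Aqp1 fell from 40.0 ± 1.30 to 9.03 ± 0.609 FPKM (log2 change -2.03 ± 0.05, adjusted p = 4.1e-10). Tfrc, the transferrin receptor, fell from 37.8 ± 2.11 to 15.7 ± 0.383 FPKM (log2 change -1.21 ± 0.05, adjusted p = 6.1e-09), and Fth1, the ferritin heavy chain, rose from 2519.6 ± 84.7 to 4577 ± 239 FPKM (log2 change 0.86 ± 0.05, adjusted p = 3.7e-08).

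Genes of immune signalling rose in these epithelial cultures. For cytokines, chemokines and NF-kB genes 27 of 36 measured members were called higher and 3 lower, with a median log2 change of 0.97. Il1rn, the antagonist of the IL-1 receptor, rose from 17.3 ± 0.606 to 209 ± 13.6 FPKM (log2 change 3.52 ± 0.05, adjusted p = 1.2e-11). Cxcl16, a membrane-bound chemokine, stood at 23.4, 23.8 and 26.5 FPKM with vehicle and 180.4, 181 and 205 FPKM with TGFB1 (log2 change 2.89 ± 0.06, adjusted p = 1.6e-10). Csf1, the growth factor of macrophages, stood at 0.502, 0.504 and 0.624 FPKM with vehicle and 14.9, 15.9 and 19.5 FPKM with TGFB1 (log2 change 3.52 ± 0.09, adjusted p = 4.1e-10). The 3 TGFB1 libraries were higher than the 3 vehicle libraries in each case. Pigr, the carrier of secretory antibodies, fell from 915 ± 7.28 to 446 ± 19.7 FPKM (log2 change -1.04 ± 0.04, adjusted p = 3.5e-09), and Ccl25, a small-intestinal chemokine, from 447 ± 16.3 to 299 ± 15.4 FPKM (log2 change -0.58 ± 0.05, adjusted p = 7.9e-07). For interferon and antigen presentation genes 26 of 37 measured members were called higher and 4 lower, with a median log2 change of 0.70. Irf1 stood at 10.2, 10.6 and 11.2 FPKM with vehicle and 36.2, 39.3 and 40.6 FPKM with TGFB1 (log2 change 1.76 ± 0.06, adjusted p = 1.1e-09), and Oasl2 rose from 1.94 ± 0.389 to 11.8 ± 1.17 FPKM (log2 change 2.12 ± 0.10, adjusted p = 2.1e-08). Psmb8, of the immunoproteasome, rose from 2.28 ± 0.130 to 9.61 ± 0.398 FPKM (log2 change 1.70 ± 0.06, adjusted p = 3.6e-09) and B2m, the light chain of MHC class I, from 883 ± 34.4 to 1443 ± 39.8 FPKM (log2 change 0.71 ± 0.04, adjusted p = 6.3e-08). Irf8 fell from 31.0 ± 0.664 to 11.2 ± 0.203 FPKM (log2 change -1.39 ± 0.04, adjusted p = 9.6e-10) and Ifitm3 from 196 ± 0.489 to 104 ± 13.4 FPKM (log2 change -0.91 ± 0.08, adjusted p = 6.8e-06). The immune marker sum given above was also higher, with Cd14, Cd68 and Csf1r higher and Lyve1 and Itgam lower. The part of these markers in the values here was not tested.

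In the TNF receptor family 10 of 15 members were called higher and 1 lower (median log2 change 0.41). Tnfrsf11b, the decoy receptor osteoprotegerin, stood at 1.46, 1.24 and 1.65 FPKM with vehicle and 45.9, 43.9 and 50.5 FPKM with TGFB1 (log2 change 4.29 ± 0.07, adjusted p = 2.7e-11). Tnfrsf12a, the TWEAK receptor, rose from 59.2 ± 3.06 to 271 ± 21.7 FPKM (log2 change 2.18 ± 0.06, adjusted p = 5.8e-10). For AP-1 and early response factors 19 of 21 measured members were called higher and 0 lower, with a median log2 change of 1.22. Fosl1 stood at 1.84, 2.34 and 3.52 FPKM with vehicle and 20.4, 20.1 and 23.3 FPKM with TGFB1 (log2 change 2.67 ± 0.16, adjusted p = 2.0e-06). Fos rose from 10.8 ± 0.570 to 85.4 ± 10.1 FPKM (log2 change 2.87 ± 0.08, adjusted p = 1.0e-09) and Jun from 22.3 ± 1.32 to 129 ± 2.36 FPKM (log2 change 2.48 ± 0.05, adjusted p = 3.6e-11). For EGF ligands, receptors and MAPK feedback genes 24 of 37 measured members were called higher and 11 lower, with a median log2 change of 0.41. Egfr, the receptor itself, stood at 7.60, 7.33 and 7.50 FPKM with vehicle and 35.4, 36.4 and 38.9 FPKM with TGFB1 (log2 change 2.16 ± 0.05, adjusted p = 1.6e-10). Dusp10, Dusp4 and Dusp1, phosphatases that switch off MAP kinases, rose by log2 changes of 2.17 ± 0.07 (adjusted p = 1.3e-09), 1.81 ± 0.06 (adjusted p = 9.6e-10) and 2.04 ± 0.07 (adjusted p = 1.8e-09). Lrig1, an inhibitor of EGF receptors, fell from 39.5 ± 0.604 to 17.4 ± 1.15 FPKM (log2 change -1.14 ± 0.05, adjusted p = 1.1e-08), and the growth factor carrier Fgfbp1 from 191 ± 3.82 to 55.2 ± 3.14 FPKM (log2 change -1.78 ± 0.04, adjusted p = 3.0e-10).

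The design allows a test of whether the TGFB1 effect at D7 differed between the sets with and without irradiation, over the 12 D7 libraries. Irradiation and any other difference between these sets cannot be told apart. The irradiation term is the log2 effect with irradiation minus that without. It was called in 6061 of 11411 genes (53.1%), above 0 in 25.3% of all genes tested and below 0 in 27.8%. In 610 of these genes the effect was called in opposite directions in the 2 conditions. The balance above and below 0 depends on the scaling, since median-ratio scaling gave 3367 terms above and 2793 below 0 in place of 2888 and 3173. Irradiation was given to whole sets of libraries whose FPKM stand in separate tables, and a factor common to a table cancels in this term only for genes far above 1 FPKM, the pseudocount, and not for genes near it such as Csf1 and Cst6.

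Hormone, brush border and lipid absorption genes had the more positive effects after irradiation. Of enteroendocrine products 21 of 23 tested members had a called term above 0 and 1 below 0, with a median term of 0.93 (median effect without irradiation -0.06). Of brush border genes 17 of 19 tested members had a called term above 0 and 0 below 0, with a median term of 0.95, and their median effect without irradiation was -1.32, lower than with it. Of lipid absorption genes 19 of 21 tested members had a called term above 0 and 0 below 0, with a median term of 0.89 (median effect without irradiation -0.72). The sugar, peptide and amino acid carriers were divided, with a called term above 0 in 9 and below 0 in 8 of 22 tested members (median term 0.09). Of Paneth products 15 of 21 tested members had a called term above 0 and 0 below 0, with a median term of 0.90 (median effect without irradiation -0.34). AP-1 and early response factors rose further after irradiation: 18 of 21 tested members had a called term above 0 and 0 below 0, with a median term of 0.68. For YAP targets 13 of 22 tested members had a called term above 0 and 1 below 0, with a median term of 0.34, and for cytokine genes 27 of 36 tested members had a called term above 0 and 2 below 0, with a median term of 0.55.

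Growth genes had the more negative effects after irradiation. Of ribosome biogenesis genes 0 of 31 tested members had a called term above 0 and 30 below 0, with a median term of -0.79, and their median effect without irradiation was -0.02. Of DNA replication genes 0 of 45 tested members had a called term above 0 and 44 below 0, with a median term of -0.90 (median effect without irradiation -0.36). Of mitosis genes 1 of 62 tested members had a called term above 0 and 57 below 0, with a median term of -0.62 (without irradiation -0.92). Of glycolysis and hypoxia genes 4 of 27 tested members had a called term above 0 and 19 below 0, with a median term of -0.80, against a median effect of 0.11 without irradiation. Of cholesterol synthesis genes 0 of 23 tested members had a called term above 0 and 21 below 0, with a median term of -0.40.

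**Figure D4:**
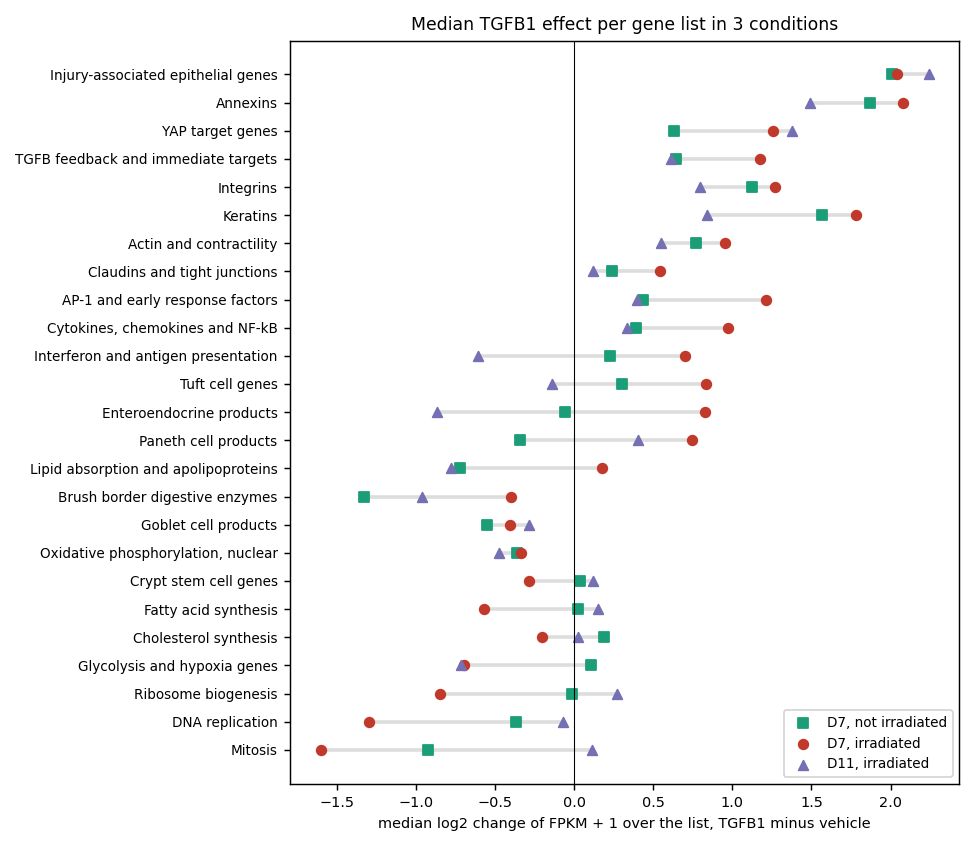
Median log2 change with TGFB1 (x axis) over the measured members of 25 gene lists (rows) in D7 organoids without irradiation (squares), D7 organoids after 4 Gy (circles) and D11 organoids after 4 Gy (triangles), each from 3 against 3 libraries. Of the 3 conditions, irradiated D7 organoids have the lowest median for mitosis, DNA replication and ribosome biogenesis, and the highest for enteroendocrine products.

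Single genes show both directions. Ccl20, a chemokine that attracts dendritic and B cells, stood without irradiation at 14.2, 13.1 and 14.8 FPKM with vehicle and 4.42, 5.18 and 6.62 FPKM with TGFB1. With irradiation it stood at 8.44, 9.71 and 10.6 FPKM with vehicle and 36.4, 30.5 and 39.5 FPKM with TGFB1 (interaction 3.02 ± 0.17, adjusted p = 2.8e-08). It thus fell in the first set and rose in the second, and the 2 groups were apart in both. Csf1 stood without irradiation at 0.261, 0.283 and 0.266 FPKM with vehicle and 1.78, 1.10 and 1.30 FPKM with TGFB1, against the values after irradiation given above (interaction 2.61 ± 0.15, adjusted p = 6.4e-09). Lct, lactase, stood at 1.76, 2.13 and 1.59 FPKM with vehicle and 0.923, 0.989 and 0.873 FPKM with TGFB1 without and at 9.62, 8.57 and 10.1 FPKM with vehicle and 33.8, 38.3 and 37.0 FPKM with TGFB1 with irradiation (interaction 2.39 ± 0.11, adjusted p = 7.3e-10). Cst6, a cysteine protease inhibitor, stood at 0.436, 0.552 and 0.452 FPKM with vehicle and 0.989, 1.02 and 0.981 FPKM with TGFB1 without and at 1.45, 1.20 and 1.10 FPKM with vehicle and 12.8, 14.4 and 15.7 FPKM with TGFB1 with irradiation (interaction 2.33 ± 0.12, adjusted p = 1.6e-09). Lct was lower with TGFB1 without irradiation and higher with it after irradiation. Levels with and without irradiation come from tables that were made separately, so only the TGFB1 effects within each were tested.

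In the other direction, Ak4 stood at 44.8, 43.6 and 44.5 FPKM with vehicle and 39.6, 42.7 and 43.0 FPKM with TGFB1 without irradiation and at 17.1, 16.3 and 16.8 FPKM with vehicle and 3.20, 2.74 and 1.99 FPKM with TGFB1 with it (interaction -2.21 ± 0.13, adjusted p = 8.6e-09). Stc2 stood at 42.8, 43.0 and 45.6 FPKM with vehicle and 29.7, 32.0 and 32.1 FPKM with TGFB1 without irradiation (interaction -2.13 ± 0.08, adjusted p = 7.8e-11). Slc16a3 stood at 173, 164 and 163 FPKM with vehicle and 250.2, 267 and 259 FPKM with TGFB1 without irradiation, where it was higher with TGFB1 (interaction -1.89 ± 0.08, adjusted p = 5.8e-10). These 3 genes are known to respond to low oxygen or nutrient stress.

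**Figure D5:**
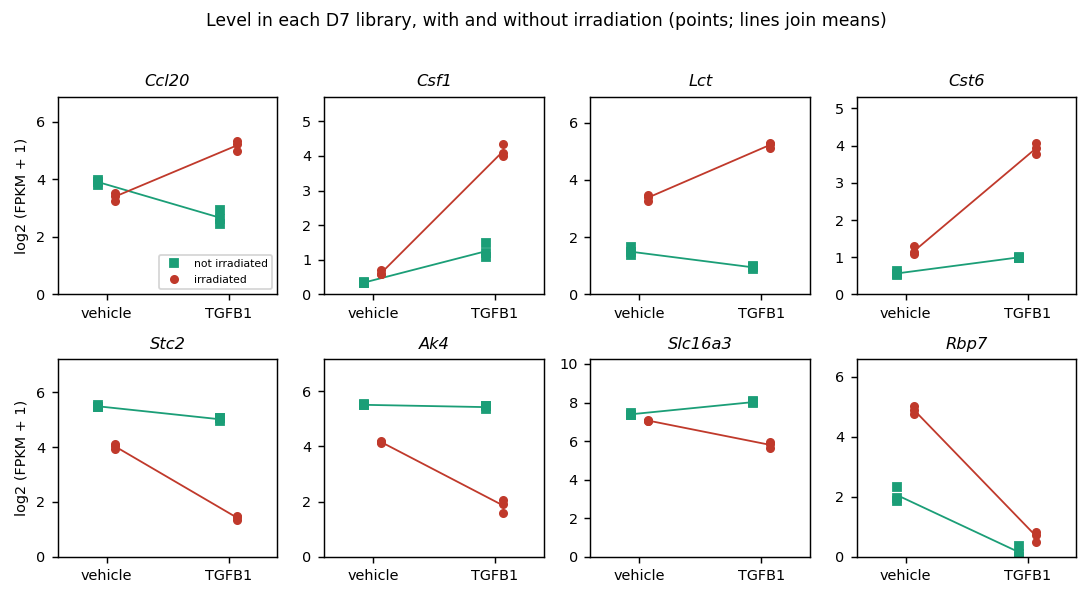
Log2(FPKM + 1) (y axes) of 8 genes in each D7 library without irradiation (green squares) and after 4 Gy (red circles), with vehicle and with TGFB1; lines join the means of 3 libraries. The lines of Ccl20 and Lct run in opposite directions in the 2 sets, and those of Stc2 and Ak4 fall further after irradiation.

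At D11, 4 days after the treatment ended per the labelled days, the TGFB1 effect had other sizes. The day term, the log2 effect at D7 minus that at D11 over the 12 irradiated libraries, was called in 7387 of 11456 genes (64.5%). It was above 0 in 33.0% and below 0 in 31.5% of all genes tested, 3780 and 3607 genes. The balance turned with quantile normalization, to 3543 and 3929, and with a required mean of 5 FPKM, to 2950 and 3059. This term uses the same irradiated D7 libraries as the irradiation term, so the 2 are not independent.

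Of the pathway's feedback genes 10 of 16 tested members had a called term above 0 and 0 below 0, with a median term of 0.69 (median effect at D11 0.61). Enteroendocrine products had higher effects at D7: 20 of 23 tested members had a called term above 0 and 0 below 0, with a median term of 1.93 (median effect at D11 -0.87). For interferon and antigen presentation genes 32 of 36 tested members had a called term above 0 and 1 below 0, with a median term of 1.18 (at D11 -0.61). For villus tip genes 13 of 17 tested members had a called term above 0 and 2 below 0, with a median term of 1.64. Division genes had lower effects at D7: for mitosis 0 of 62 tested members had a called term above 0 and 61 below 0, with a median term of -1.73, and the median effect at D11 was 0.12. For ribosome biogenesis 0 of 31 tested members had a called term above 0 and 30 below 0, with a median term of -1.15 (at D11 0.27).

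Ada stood at D11 at 25.1, 35.7 and 54.4 FPKM with vehicle and 10.5, 11.5 and 13.8 FPKM with TGFB1, where TGFB1 libraries were lower, opposite to D7 (interaction 4.25 ± 0.31, adjusted p = 1.0e-06). Sepp1, the plasma selenium carrier, stood at 338, 327 and 351 FPKM with vehicle and 618, 618 and 659 FPKM with TGFB1 at D7 and at 900.5, 904 and 997 FPKM with vehicle and 82.9, 97.9 and 77.1 FPKM with TGFB1 at D11 (interaction 4.33 ± 0.12, adjusted p = 2.7e-11). Both genes rose at D7 and were lower with TGFB1 at D11. Spp1, osteopontin, stood at 0.741, 0.797 and 0.557 FPKM with vehicle and 2.43, 2.59 and 2.84 FPKM with TGFB1 at D7 and at 0.0801, 0.838 and 0.113 FPKM with vehicle and 48.4, 31.6 and 100.3 FPKM with TGFB1 at D11 (interaction -4.30 ± 0.50, adjusted p = 4.2e-05). It was higher with TGFB1 on both days, by more at D11.

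A pair of single-cell libraries gives the same genes beside the bulk values. They came from organoids with 4 Gy on day 4 that received vehicle (0 h) or 1 ng/mL TGFB1 (24 h) for the last 24 h before collection on day 8. Dose and day differ from the bulk libraries and there is 1 library a time, so no test or comparison of sizes is made. Counts of unique molecules were summed over 2932 and 2218 kept cells and expressed as CPM, a share of all UMIs of the library, with exact Poisson intervals (95%) that cover counting error only. Pmepa1 had 15.6 CPM (interval 14.2 to 17.2) at 0 h and 334 CPM (interval 327 to 340.1) at 24 h. Cldn4 had 95.2 CPM (interval 91.6 to 98.9) at 0 h and 532 CPM (interval 524 to 540.2) at 24 h. Krt7 had 93.5 CPM (interval 89.9 to 97.2) at 0 h and 561 CPM (interval 553 to 569.6) at 24 h. These intervals did not overlap between the libraries, and the 24 h library was higher for the 3 genes. Thbs1 had 28.6 CPM (interval 26.6 to 30.6) at 0 h and 245 CPM (interval 240.0 to 251) at 24 h, Cck 5.81 CPM (interval 4.95 to 6.79) at 0 h and 43.1 CPM (interval 40.8 to 45.5) at 24 h and Apoa1 805 CPM (interval 794 to 815) at 0 h and 2468 CPM (interval 2449.9 to 2485) at 24 h. Among genes of division, Ube2c had 79.5 CPM (interval 76.2 to 82.9) at 0 h and 40.4 CPM (interval 38.1 to 42.7) at 24 h and Rrm2 55.5 CPM (interval 52.8 to 58.4) at 0 h and 29.8 CPM (interval 27.9 to 31.8) at 24 h, both lower at 24 h.

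By list, the median difference of log2(CPM + 1) at 24 h minus 0 h was 1.76 for injury genes, 1.47 for YAP targets, 1.46 for annexins and 1.40 for keratins. It was 0.83 for enteroendocrine and 0.80 for Paneth products. For mitosis genes it was -0.66, for DNA replication -0.40 and for ribosome biogenesis -0.42. Over the 10386 genes measured in both assays it was 0.04. The lists did not all have the bulk sign: of 27 lists with a bulk median below 0, 10 lay above 0 here. Goblet products had a median of 0.22, secretory lineage factors of 0.20, cholesterol synthesis of 0.18, fatty acid synthesis of 0.15 and glycolysis and hypoxia genes of 0.02, where the bulk medians were -0.41, -0.26, -0.20, -0.57 and -0.70. All single-cell medians are over members with at least 20 UMIs over both libraries. For goblet products these were 12 of the 15 measured in bulk, and for secretory lineage factors 15 of 17. The part of the missing members in the difference was not tested.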

How the data were processed

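Gene lists and members were chosen with earlier results of these data known. Some genes stand in several lists, so the list counts are not independent of each other. Gene levels are FPKM as the authors deposited them, in 3 separate tables of 6 libraries. The submitters' processing notes name TopHat2 2.1.0, Cuffnorm 2.2.1, Cuffdiff 2.2.1, STARsolo and STAR 2.7.10a among the tools and mm9, GRCm39 and mm39 among the builds, without saying which made which file. Single-cell matrices hold expected counts (estimated, partly fractional UMIs) as the authors deposited them. Read depth behind the FPKM is unknown, so no interval was computed from counts there.

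Genes averaging 1 FPKM or more over the libraries fitted were tested on log2(FPKM + 1) with limma 3.58.1 (R 4.3.3, trend and robust moderation, two-sided, Benjamini-Hochberg over all genes tested). The main fit used the 6 irradiated D7 libraries without a term for the replicate number. The 2 interaction terms used 12 libraries each. Scripts were tested on simulated data. Single-cell UMIs were kept as they are, unrounded since no count model was fitted, from barcodes with 500 UMIs or more, 250 genes or more and no more than 20% of UMIs from mitochondria. This left 2932 of 2937 barcodes at 0 h and 2218 of 2239 at 24 h, and the libraries shared 0 barcodes. No doublet caller was run. Python 3.11.15, pandas 2.3.3 and scipy 1.17.1 were used.

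The genes named are the largest rises and falls among called genes of at least 10 FPKM in a group. In each list they are the 4 largest called changes from 5 FPKM, the most abundant member, up to 3 members against the list's direction and the 2 most abundant members not called, and lists of up to 8 members may be named whole. In each interaction they are the 6 largest terms in each direction. Of these a part is printed. Alternatives were another pseudocount, other filters, 2 scalings, a replicate block, limma without trend, a fit of all 18 RNA libraries, stricter thresholds, single libraries left out and other single-cell filters. Chromatin accessibility files and the other single-cell libraries were not used here. Some genes are not reported here.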

Additional observations from a re-analysis of the deposited data

Results flagged for a closer look

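Each result here is a gene whose TGFB1 effect differed between conditions by a called interaction term in limma. With minus without irradiation at D7, the log2 term was 3.02 for Ccl20, 2.61 for Csf1, 2.39 for Lct and 2.33 for Cst6. It was -2.13 for Stc2, -2.21 for Ak4 and -1.89 for Slc16a3. For D7 minus D11 after irradiation, it was 4.33 for Sepp1 and 4.25 for Ada, and -4.30 for Spp1. These genes were taken from the largest terms in each direction, so their size is partly a matter of that choice.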

How the results depend on the processing

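No gene or list median named in the text changed its direction under the alternatives run. The balance of terms above and below 0 did turn, as given in the report, for the irradiation term with median-ratio scaling and for the day term with quantile normalization and with a required mean of 5 FPKM. Genes called in irradiated D7 organoids ranged from 8033, with all 18 RNA libraries in one fit, to 9449 without the filter on low levels, apart from stricter filters and thresholds. Requiring at least 2-fold left 1484 genes, 877 higher and 607 lower. Without single libraries the count ranged from 8100.0 to 8265. Same-numbered libraries correlated by 0.0745, 0.213 and 0.0237 in their deviations from the group means. Libraries of different number correlated by -0.148 to 0.0717. With 3 libraries a group, these values cannot settle whether the replicate numbers pair the samples. With a replicate block 8417 genes were called, 5967 for the irradiation term and 7451 for the day term, and the block ended no call of a named gene. Genes called with an irradiation term of at least 2-fold numbered 500.0, or 785 with a pseudocount of 0.1. A required mean of 5 FPKM left fewer list members, with 12 YAP target genes called higher in place of 22. List counts of 1 or 2 in one direction often moved by 1 when a library was left out. Of 3538 recomputed values of named genes 14 lost their call and 1 gained it. Most of those lost were of Kit, for which no change is stated, and the others are given in the report. Unknown depth and 3 libraries a group limit what small changes of genes near 1 FPKM can show.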
